A study of Mus musculus with 38 samples.

Results

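The genes described here are 10 components of dense core vesicles and of the enzymes that mature prohormones inside them: Vgf, Scg2, Scg3, Scg5, Chga, Chgb, Pcsk1, Pcsk1n, Pcsk2 and Cpe. They are 10 of 57010 gene IDs in the count table. The list was chosen by the measured counts of Vgf, which were lower in mutants of this series, so the genotype differences of Vgf are given as a description, with no test, and the other 9 genes were tested. All 10 passed the filter on low counts in males, in females and in all libraries together, and their raw counts per library ranged from 784 to 1567 for Pcsk1, the least abundant, and from 33609 to 53841 for Cpe, the most abundant.

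Dense core vesicles store neuropeptides and neurotrophins and release them on sustained activity. Granins (Vgf, the secretogranins and the chromogranins) are acidic secretory proteins that aggregate in the trans-Golgi network, help to form the vesicle core and are themselves cut into peptides. The prohormone convertases Pcsk1 and Pcsk2 cut precursors at basic residues, carboxypeptidase E (Cpe) trims the exposed basic residues, and 2 small partner proteins, Pcsk1n and Scg5, bind Pcsk1 and Pcsk2 respectively. In cortex these genes are active in neurons, and bulk RNA does not show how much of their transcripts comes from other cells.

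Poly(A) RNA of medial prefrontal cortex, dissected from coronal slices, was sequenced from 38 mice, 1 library per animal. Every mouse carried SSTCre, in which the somatostatin gene drives Cre recombinase, so Cre acts in somatostatin interneurons and in any cell that has expressed somatostatin. Controls carried SSTCre alone, and mutants (SSTCre:γ2f/f) were in addition homozygous for a floxed γ2 allele. Mice were left without stress (NS) or received 21 days of chronic variable stress (CVS), and the protocol places collection 24 hours after the last stressor. The groups were male control NS (5 mice), male control CVS (6), male mutant NS (3) and male mutant CVS (4), and 5 female mice in each of the corresponding 4 groups. Ages are not given in the labels. The animal names of males and females follow separate series, so a difference in level between the sexes cannot be told apart from a difference between cohorts, and levels were not compared between the sexes.

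Library totals ranged from 17.6 to 27.5 M counts and averaged 21.1 ± 1.72 M in males (SD, n = 18) and 21.0 ± 2.72 M in females (SD, n = 20). The composition of the libraries differed between the sexes. Mitochondrial transcripts took 5.13 to 6.66% of counts in males and 3.26 to 4.08% in females. The ID called most abundant below took 0.0451 to 0.406% in males and 4.21 to 7.83% in females. Levels below are CPM (counts per M library counts, scaled with TMM factors over all 38 libraries). Markers of glutamatergic neurons summed to 5901 to 7478 CPM per library, and 0 of the 13 marker lists held a marker at 0 in every library. Peptide markers of the hypothalamus, where granins are abundant, summed to 0.95 to 3.69 CPM. Cdhr1, a marker of the olfactory bulb, lay between 1.74 and 5.35 CPM in 35 libraries and was higher in 3 male ones, at 16.01 CPM in control CVS replicate 1, 25.02 CPM in mutant NS replicate 2 and 26.6 CPM in mutant NS replicate 3. Values without these 3 libraries are given below for many, but not all, results whose sign, call or size depended on them. The difference in unstressed males then rests on 1 mutant, assumed to vary like the other groups.

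In these bulk samples, fewer cells of a type and less RNA per cell cannot be told apart. The replicates are separate mice, and p values measure the spread between them. A fold change is called where the quasi-likelihood test of edgeR gives a p below 0.05 after Benjamini-Hochberg adjustment over all tested genes. Differences are log2 fold changes ± standard error.

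Upstream sequences of the genes were compared for the cAMP response element TGACGTCA, the palindrome bound by CREB-family factors that act downstream of neuronal activity. RefSeq promoter windows on GRCm38.p6 covered 8 of the 10 genes, all but Vgf and Cpe, and the 250 bases before the gene start were searched on both strands. TGACGTCA was found in 3 of these 8 genes (Scg2, Chgb and Pcsk1), against 1.77% of 27025 genes (1.55% of 32851 promoter windows of the same length). The shorter motif TGACG, which is contained in the longer one, was found in 7 of 8, all but Pcsk1n, against 19.8% of the genes (17.8% of the windows). A match is a description of these letters and not of a bound site. The windows of the 3 genes with the full element and of Chga, whose level differed by genotype, are shown 5′ to 3′ on the gene's strand, with the full element or, in Chga, the shorter motif in capitals. They lie at chr1:79440027-79440276 (minus strand) for Scg2, chr2:132781392-132781641 (plus) for Chgb, chr13:75089607-75089856 (plus) for Pcsk1 and chr12:102554691-102554940 (plus) for Chga.
Scg2: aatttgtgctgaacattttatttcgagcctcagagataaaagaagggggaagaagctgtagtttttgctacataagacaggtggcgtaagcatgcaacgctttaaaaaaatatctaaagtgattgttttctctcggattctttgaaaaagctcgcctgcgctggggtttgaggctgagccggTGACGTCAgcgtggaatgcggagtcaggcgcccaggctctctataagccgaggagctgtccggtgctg
Chgb: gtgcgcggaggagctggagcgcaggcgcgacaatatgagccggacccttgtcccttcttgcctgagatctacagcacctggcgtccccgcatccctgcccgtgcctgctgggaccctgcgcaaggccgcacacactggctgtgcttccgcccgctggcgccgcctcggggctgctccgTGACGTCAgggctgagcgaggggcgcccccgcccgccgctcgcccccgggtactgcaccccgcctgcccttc
Pcsk1: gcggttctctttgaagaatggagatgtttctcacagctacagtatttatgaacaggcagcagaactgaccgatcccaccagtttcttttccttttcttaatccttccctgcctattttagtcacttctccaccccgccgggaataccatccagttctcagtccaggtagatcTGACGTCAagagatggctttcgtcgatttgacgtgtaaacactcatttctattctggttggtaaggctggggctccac
Chga: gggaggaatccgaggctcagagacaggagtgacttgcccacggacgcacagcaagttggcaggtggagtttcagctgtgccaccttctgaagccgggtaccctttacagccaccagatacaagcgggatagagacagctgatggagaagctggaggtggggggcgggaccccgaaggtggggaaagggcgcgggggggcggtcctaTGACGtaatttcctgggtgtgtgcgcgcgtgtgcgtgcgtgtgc
The full element begins 68 bases before the gene start in Scg2, 72 in Chgb and 78 in Pcsk1, and the shorter motif begins 44 bases before it in Chga.

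Between genes, levels were compared per kilobase of exon (CPM divided by the union exon length). Cpe was the highest of the 10 with 768 ± 36.7 CPM per kb (SD, n = 38), followed by Pcsk1n with 280.1 ± 27.4. Chgb (148 ± 6.63) and Vgf (135 ± 19.6) came next, and Chgb lay above Vgf in 29 of 38 libraries. Scg5 (104 ± 7.90) and Scg3 (102 ± 4.91) differed by less than their spread, with Scg5 higher in 20 of 38. Pcsk2 (68.7 ± 4.07), Scg2 (58.4 ± 4.93) and Chga (51.0 ± 3.91) followed, each above the next in at least 34 of 38 libraries. Pcsk1 was lowest with 9.71 ± 1.26 CPM per kb. Pcsk2 was thus the more abundant convertase transcript, and Pcsk1 lay far below Pcsk1n, the transcript of its inhibitor, in all 38 libraries. Over all libraries the coefficient of variation was 4.47% for Chgb, 4.78% for Cpe and 4.79% for Scg3, the lowest 3 of the 10. It was highest for Vgf, at 14.5%, followed by Pcsk1 with 13.0%.

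The first comparison asked how the mutation bears on these genes. Vgf, the precursor of several secreted peptides, was lower in mutants of both sexes. The values that chose the list are these. In male controls without stress Vgf stood at 440.4, 524, 465, 391 and 492 CPM, and in male mutants without stress at 381, 358 and 323 CPM. Under stress, male controls ranged from 338 to 507 CPM with a median of 426, and male mutants stood at 347, 407, 339 and 326 CPM. The groups without stress did not overlap, while under stress the lowest control (338 CPM) lay below 3 of the 4 mutants. Among females without stress, controls stood at 458, 440.0, 496, 471 and 457 CPM and mutants at 310.3, 391, 343, 347 and 336 CPM. Under stress, female controls stood at 423, 422, 411, 438 and 449 CPM and mutants at 353, 349, 396, 350.4 and 331 CPM. All 10 female mutants (310.3 to 396 CPM) lay below all 10 female controls (411 to 496 CPM). Among males all 7 mutants lay below the control mean, and 3 of 11 controls lay at or below the highest mutant.

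**Figure D1:**
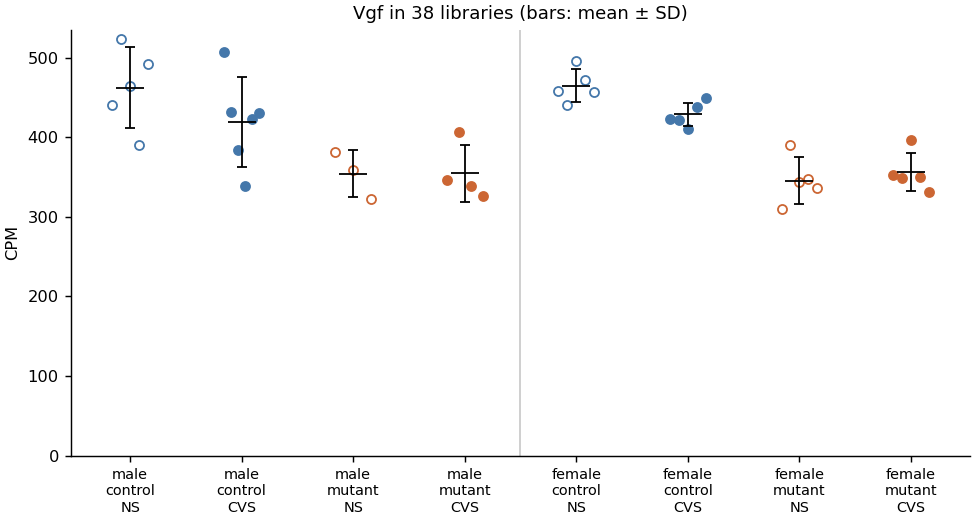
Vgf in CPM (y axis, from 0) in each of the 38 libraries, by group (x axis). Open points are NS and filled points CVS mice, controls are blue and mutants orange, and bars show the mean and SD. Group means of mutants lie between 345 and 356 CPM, and those of controls between 419 and 464 CPM.

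Group means of Vgf were 462 ± 50.6 CPM in male control NS (SD, n = 5), 419 ± 56.2 in male control CVS (n = 6), 354 ± 29.6 in male mutant NS (n = 3) and 354 ± 35.8 in male mutant CVS (n = 4). In females they were 464 ± 20.9, 429 ± 14.98, 345 ± 29.0 and 356 ± 24.1 CPM in the same order (n = 5 each). The lowest 4 of the 8 group means were thus the 4 mutant groups, and they differed among themselves by less than their SD. The log2 difference of mutants from controls was −0.39 ± 0.119 in males without stress, −0.24 ± 0.105 in males under stress, −0.43 ± 0.0476 in females without stress and −0.27 ± 0.0476 in females under stress. Averaged over these 4 contrasts in the model of all libraries it was −0.33 ± 0.0425, a fold of 0.795. Without the 3 libraries high in Cdhr1 the average was −0.29 ± 0.0462. The difference in stressed males was then −0.18 ± 0.0958, and that in unstressed males, resting on 1 mutant, was −0.28.

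Of the other 9 genes, 2 differed between genotypes in the contrast averaged over both sexes and both stress states: Chga and Scg2, both lower in mutants. In that contrast 1.09% of 17671 tested genes were called (193 genes, 60 higher and 133 lower). Within single groups 0 of the 9 were called: in males without stress 0.0174% of 17212 tested genes were called, in males under stress 0.0523%, in females without stress 0.128% of 16435 and in females under stress 0.0243%. At an unadjusted p under 0.05 the 9 genes gave 1 in males without stress (Scg2), 0 in males under stress, 3 in females without stress (Scg2, Chga and Pcsk1n) and 1 in females under stress (Chga), all lower in mutants, where 6.13%, 7.62%, 8.07% and 7.08% of all tested genes had such a p in the same order. DESeq2 called 1 gene, Chga, in each female contrast and 0 in the male ones, and limma voom called 0 in all 4. In the averaged contrast DESeq2 called 2 genes and limma voom 1, Chga.

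Chga encodes chromogranin A, a calcium-binding granin that is cut into vasostatin and catestatin. In female controls without stress it stood at 154, 151, 161, 149 and 138 CPM, and in female mutants without stress at 128, 136, 136, 132 and 138 CPM. Under stress female controls stood at 168, 154, 149, 151 and 164 CPM and mutants at 132, 148, 139, 144 and 137 CPM. The stressed female groups did not overlap, although the lowest control (148.9 CPM) and the highest mutant (148.1 CPM) were close, and in the unstressed groups the lowest control (137.8 CPM) lay just under the highest mutant (138.2 CPM). Over both stress states female controls averaged 154 ± 8.59 CPM and mutants 137 ± 5.93 CPM (SD, n = 10 each), and all 10 mutants lay below the control mean.

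In males the 2 genotypes overlapped. Controls without stress stood at 139, 140.3, 135, 143 and 135 CPM and mutants at 118, 136 and 136 CPM. Stressed male controls ranged from 122 to 146 CPM with a median of 135, and mutants stood at 129.9, 138, 138 and 132 CPM. The male means were 136 ± 6.92 CPM in controls (n = 11) and 133 ± 7.04 CPM in mutants (n = 7).

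The averaged genotype difference of Chga was −0.11 ± 0.0238 (edgeR adjusted p 0.0101, 38 libraries), with single contrasts of −0.09 and −0.01 in males without and under stress and of −0.17 and −0.16 in females (adjusted p 0.105 and 0.400). It stayed called in all 38 runs that left out 1 library (adjusted p 0.00384 to 0.0420) and, at −0.14 (adjusted p 0.00449), without the 3 libraries high in Cdhr1. In unstressed males it was −0.23 ± 0.0806 (adjusted p 0.618) without those libraries, and in stressed males −0.01. The difference between the sexes of this effect (females minus males) was −0.12 ± 0.0474, with an unadjusted p of 0.0144 and an edgeR adjusted p of 0.513, and it was −0.05 ± 0.0544 (adjusted p 0.983) without the 3 libraries. In this test of sex differences 0 of 10 genes were called, where 0.00566% of all tested genes were called. Of the 10, 2 (Chga and Pcsk1n) had an unadjusted p under 0.05, as had 8.01% of all tested genes. DESeq2 and limma voom also called 0 of 10.

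Scg2 encodes secretogranin II, the precursor of the neuropeptide secretoneurin. Male controls without stress stood at 173, 156, 180.0, 129 and 147 CPM, and male mutants at 138, 140.0 and 139.7 CPM. Stressed male controls ranged from 136 to 149.6 CPM with a median of 141, and stressed mutants stood at 132, 140.5, 132 and 141 CPM. The unstressed male controls spread widely, and their lowest mouse lay below all 3 unstressed mutants. Female controls without stress stood at 169, 151, 165, 157 and 157 CPM, and female mutants at 125, 162, 143, 149 and 141 CPM. Under stress the female controls stood at 147, 136, 156, 152 and 162 CPM and the mutants at 144, 134, 141, 145 and 145 CPM. The genotypes overlapped in each of the 4 contrasts, with 7 of 7 male and 9 of 10 female mutants below the mean of their controls.

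The averaged genotype difference of Scg2 was −0.12 ± 0.0310, with an edgeR adjusted p of 0.0499946, just under the threshold. It lost the call in 30 of 38 runs that left out 1 library (adjusted p up to 0.105) and without the 3 libraries high in Cdhr1 (−0.11, adjusted p 0.224), while its size stayed between −0.13 and −0.10 in all alternatives. The single contrasts were −0.18 ± 0.0708 in unstressed males, −0.05 ± 0.0625 in stressed males, −0.15 ± 0.0509 in unstressed females and −0.09 ± 0.0510 in stressed females.

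**Figure D2:**
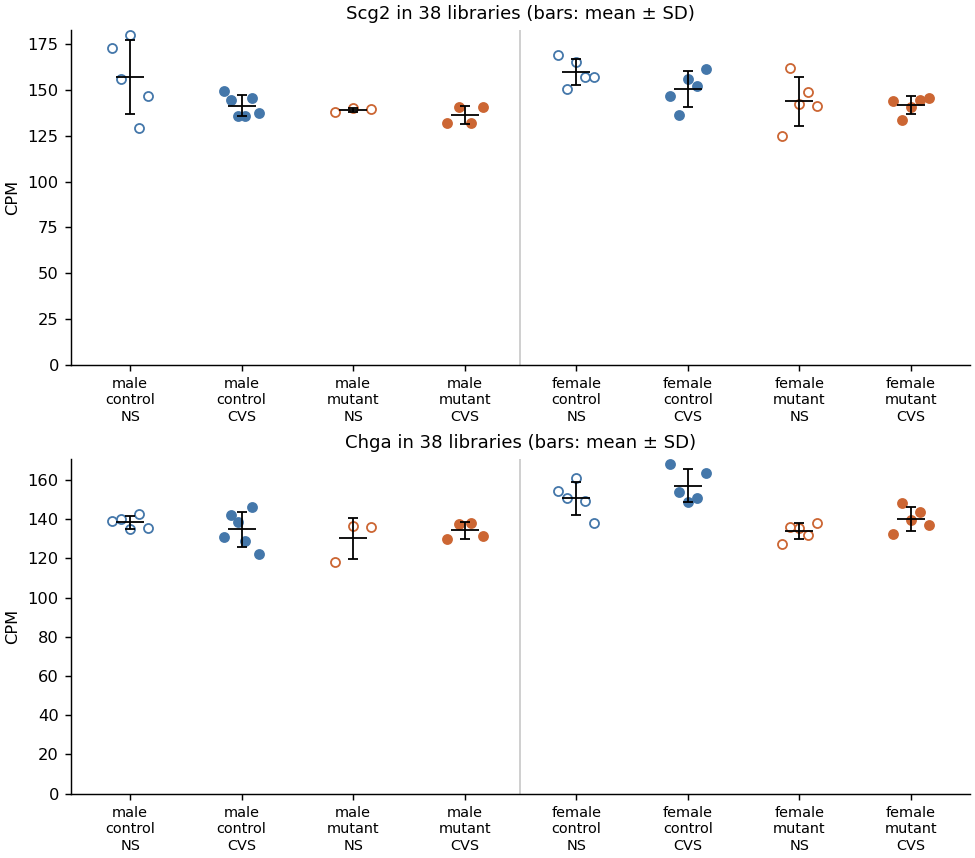
Scg2 (upper plot) and Chga (lower plot) in CPM (y axes, from 0) in each of the 38 libraries, by group (x axes). Open points are NS and filled points CVS mice, controls are blue and mutants orange, and bars show the mean and SD. In females the stressed Chga groups do not overlap, with controls averaging 157 CPM and mutants 140.2 CPM, while the Scg2 groups overlap in each contrast.

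The remaining granins were not called for genotype. Chgb (chromogranin B, which shares the vesicle core with Chga) had an averaged difference of −0.04 ± 0.0191 (95% interval −0.08 to 0.00, adjusted p 0.477). Its group means spanned 392 to 427 CPM. Scg3, the membrane-anchored granin that binds chromogranin A, differed by 0.03 ± 0.0197 (−0.01 to 0.07, adjusted p 0.552). The sign of Scg3 was thus opposite to that of Vgf, Chga and Scg2, and 3 of 7 male and 1 of 10 female mutants lay below the control mean.

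Of the enzymes, Pcsk1 (the convertase that makes the first cuts in many precursors) differed by −0.05 ± 0.0603 between genotypes (95% interval −0.18 to 0.07), Pcsk2 (the convertase that completes many neuropeptides) by −0.01 ± 0.0236 (−0.06 to 0.03) and Cpe by −0.01 ± 0.0204 (−0.05 to 0.04). The interval of Pcsk1 was the widest of the 3. Cpe averaged 1967 ± 86.2 CPM in male controls and 1948 ± 88.01 in male mutants, and 2038 ± 80.7 and 2049 ± 100.4 in female controls and mutants. A small part of the exon bases of Pcsk2 (4.54%) and of Pcsk1n (6.16%) overlaps genes on the opposite strand in the annotation used for lengths, and the sources used here do not give the strand setting of the counts.

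Neither of the 2 partners of the convertases was called. Scg5, the chaperone that Pcsk2 needs to mature, differed by 0.05 ± 0.0319 (95% interval −0.01 to 0.12, adjusted p 0.598), and by −0.01 without the 3 libraries high in Cdhr1. Pcsk1n, which encodes the Pcsk1 inhibitor proSAAS, differed by −0.03 ± 0.0337 (−0.10 to 0.04, adjusted p 0.812), and by −0.08 ± 0.0386 (adjusted p 0.522) without them. In unstressed females Pcsk1n stood at 625.1 to 665 CPM in controls and 576 to 623 CPM in mutants, so those groups did not overlap, with a difference of −0.13 ± 0.0438 (edgeR adjusted p 0.365). In stressed males its difference was 0.11 ± 0.0771, and in unstressed males −0.04 with all libraries and −0.20 ± 0.130 (adjusted p 0.894) without the 3. The difference between the sexes of the Pcsk1n effect was −0.14 ± 0.0673 (adjusted p 0.621) with all libraries and −0.05 ± 0.0767 (adjusted p 0.991) without the 3.

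Over all 10 genes the averaged genotype difference had a median of −0.03, with 8 negative and 2 positive, where all 17671 tested genes had a median of −9.43e-05 and 50.1% were negative. The count includes Vgf, which chose the list. Apart from Vgf, Scg2 and Chga, the 7 other genes lay between −0.05 and 0.05.

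**Figure D3:**
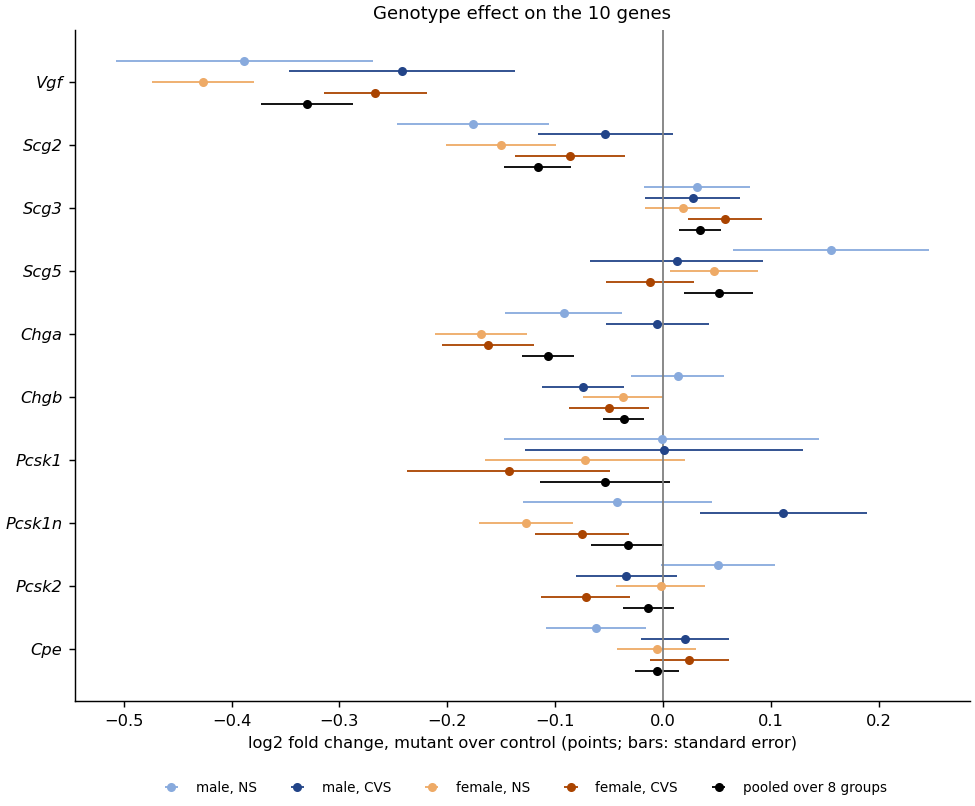
Log2 fold change of mutants over controls (x axis; points, with bars of 1 standard error) for the 10 genes (y axis) in each sex and stress state and averaged over the 4 contrasts (black). Vgf lies lowest in each contrast, between −0.43 and −0.24, and the averaged values of Scg2 and Chga are −0.12 and −0.11.

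Cell-type markers were read beside these results, in the averaged contrast where 1.09% of all tested genes were called. In the averaged contrast all 6 oligodendrocyte markers were negative (median −0.16, 0 called), all 6 astrocyte markers were negative (median −0.07, 1 called lower), and the 6 glutamatergic neuron markers were divided (3 negative, median 0.01, 0 called). The summed astrocyte markers ranged from 4266 to 4732 CPM in male control NS, 4088 to 4447 in male control CVS, 3651 to 4480 in male mutant NS and 3875 to 4126 in male mutant CVS. In females they ranged from 4539 to 5116 CPM in control NS, 4050.3 to 4955 in control CVS, 4255 to 4716 in mutant NS and 4392 to 4788 in mutant CVS. Summed oligodendrocyte markers ranged from 1210 to 1763 CPM in male controls and 995 to 1693 CPM in male mutants, and from 1064 to 1377 and 989 to 1291 CPM in females. Summed glutamatergic markers averaged 6664 and 6468 CPM in unstressed male controls and mutants, and 6733 and 6765 under stress. In females they averaged 6422 and 6137 CPM without stress, and 6653 and 6480 under stress. Summed GABAergic markers averaged 923 and 951 CPM in unstressed male controls and mutants, and 953 and 923 under stress. In females they averaged 927 and 877 CPM without stress, and 889 and 888 under stress. The part of these markers in the results on Vgf, Chga and Scg2 was not tested.

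The second comparison asked how chronic variable stress bears on the 10 genes. None was called in any stress contrast by edgeR. In male controls 0 of 10 were called, where 0.0116% of all tested genes were, and 1 (Scg2) had an unadjusted p under 0.05, as had 7.39% of all genes. In male mutants 0 of 10 were called (0% of all genes), with 1 unadjusted (Chgb; 3.38% of all genes). In female controls 0 of 10 were called (0% of all genes), with 3 unadjusted (Vgf, Scg5 and Pcsk1n; 8.72% of all genes), and in female mutants 0 of 10 (0% of all genes), with 2 unadjusted (Pcsk1 and Pcsk1n; 7.91% of all genes). In the stress contrast averaged over sexes and genotypes 0 of 10 were called, against 0.017% of all tested genes, and 1 (Scg2) had an unadjusted p under 0.05, as had 9.37% of all genes. Without the 3 libraries high in Cdhr1 the averaged stress differences lay between −0.10 (Vgf) and 0.12 (Scg5, adjusted p 0.114), with 0 called. DESeq2 and limma voom called 0 of 10 in each of these 5 contrasts.

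Vgf was lower under stress in controls of both sexes, by values that did not pass. In male controls the mean went from 462 to 419 CPM (−0.15 ± 0.0973, 95% interval −0.35 to 0.06, adjusted p 0.770), with 5 of 6 stressed mice below the unstressed mean, and in female controls from 464 to 429 CPM (−0.12 ± 0.0474, −0.21 to −0.02, adjusted p 0.481), with 5 of 5 below it. In mutants the means without and under stress were 354 and 354 CPM in males (0.00 ± 0.123) and 345 and 356 CPM in females (0.04 ± 0.0477). Of the 3 unstressed male mutants 2 are libraries high in Cdhr1, and without the 3 such libraries the stress difference of Vgf was −0.11 ± 0.158 in male mutants (adjusted p 0.983) and −0.21 ± 0.0899 in male controls (adjusted p 0.648). The interaction of genotype and stress, which is the stress effect in mutants minus that in controls, was 0.15 ± 0.157 in males (adjusted p 0.995) and 0.16 ± 0.0673 in females (unadjusted p 0.0240, adjusted p 1.000), and 0.15 ± 0.0845 averaged over the sexes (95% interval −0.02 to 0.32, adjusted p 0.931). Without the 3 libraries it was 0.10 ± 0.184 in males and 0.13 ± 0.0907 averaged. In the interaction 0 of 10 genes were called in males, in females and on average, as were 0% of all tested genes in each, and 1 gene (Vgf, in females) had an unadjusted p under 0.05, as had 4.004% of all genes in that contrast. The difference between the sexes of the stress effect called 0 of 10 genes and 0% of all tested genes, with 1 unadjusted (Chgb, 0.10 ± 0.0381) against 7.18% of all genes. For Vgf it was 0.03 ± 0.0845, and 0.12 ± 0.0899 (adjusted p 0.996) without the 3 libraries. DESeq2 and limma voom called 0 of 10 in these 4 tests as well.

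The other genes gave smaller or less regular values. Scg2 had a stress difference of −0.15 ± 0.0582 in male controls (157 to 142 CPM, adjusted p 0.599) and −0.09 ± 0.0508 in female controls (159.8 to 151 CPM), and −0.03 and −0.02 in male and female mutants. Scg5 was 155.0 ± 5.83 CPM in unstressed and 170.4 ± 8.89 CPM in stressed female controls (0.14 ± 0.0406, unadjusted p 0.00188, edgeR adjusted p 0.367), against 0.08 ± 0.0755 in male controls (0.12 ± 0.0642 without the 3 libraries high in Cdhr1). The unadjusted p of Scg5 was the smallest of the 10 genes in that contrast.

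Among the convertases and their inhibitor, Pcsk1n was 592 ± 18.4 CPM in unstressed and 656 ± 52.2 CPM in stressed female mutants (0.15 ± 0.0438, edgeR adjusted p 0.349), and 647 ± 17.4 and 692 ± 42.3 CPM in female controls (0.10 ± 0.0437, adjusted p 0.535). Without female mutant CVS replicate 5, the stressed female mutant lowest in Pcsk1n with 569.8 CPM, the difference in female mutants was 0.19 (edgeR adjusted p 0.0346). In the other 9 of 10 runs that left out 1 library it was not called (edgeR adjusted p up to 0.744). Among all tested genes these runs called 0 to 12. Pcsk1 went the other way in females, from 54.2 ± 4.68 to 46.6 ± 7.12 CPM in mutants (−0.22 ± 0.0939, adjusted p 0.573) and from 57.0 ± 2.03 to 51.6 ± 6.45 CPM in controls (−0.15 ± 0.0932, adjusted p 0.700). In males both Pcsk1 values were 0.03. Chgb was 427 ± 18.8 CPM in unstressed (n = 3) and 392 ± 11.7 CPM in stressed male mutants (n = 4), groups that did not overlap (−0.12 ± 0.0449, edgeR adjusted p 0.9997). Without the 3 libraries high in Cdhr1, which leaves 1 unstressed mutant, the difference was −0.10. The share of all tested genes whose groups do not overlap was not counted in any contrast.

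**Figure D4:**
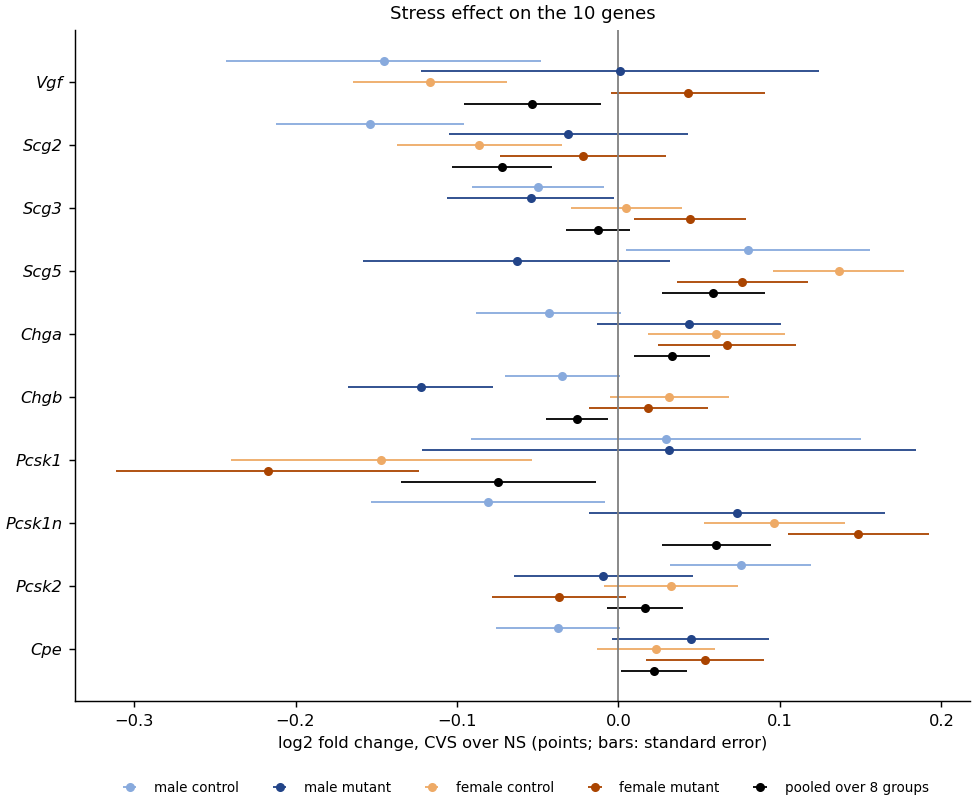
Log2 fold change of CVS over NS mice (x axis; points, with bars of 1 standard error) for the 10 genes (y axis) in each sex and genotype and averaged over the 4 contrasts (black). The averaged values lie between −0.07 and 0.06.

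The third question was which genes went with Vgf from mouse to mouse within a group. Log2 CPM were taken relative to the mean of each of the 8 groups, so that genotype, stress and sex did not enter, and compared over 38 libraries among 10025 genes with a mean log2 CPM above 3. The gene most like Vgf was Bdnf, the neurotrophin stored in the same vesicles, with a Pearson correlation of 0.743 and a Spearman correlation of 0.778. The correlation was 0.736 within males and 0.820 within females, and 0.762 without the 2 libraries farthest in Vgf (male control CVS replicates 1 and 4). Next came Fscn1 (fascin, an actin-bundling protein, 0.741), Rpn1 (ribophorin I, a subunit of the oligosaccharyltransferase, 0.699), Snrpa (a protein of the U1 spliceosomal particle, 0.694) and Lingo1 (a neuronal membrane protein, 0.667, but 0.139 within females). Penk stood at 0.288 (0.097 in males and 0.570 in females), Npas4 at 0.253 (0.185 and 0.424) and Fos at 0.208 (0.095 and 0.495). Without the 2 libraries farthest in Vgf they stood at 0.356, 0.566 and 0.581. Without the same 2 libraries Fscn1 stood at 0.721, Rpn1 at 0.609, Snrpa at 0.604 and Lingo1 at 0.574. Male control CVS replicate 1 is also among the 3 libraries high in Cdhr1. These are descriptions over libraries that share depth and normalization, with no test.

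**Figure D5:**
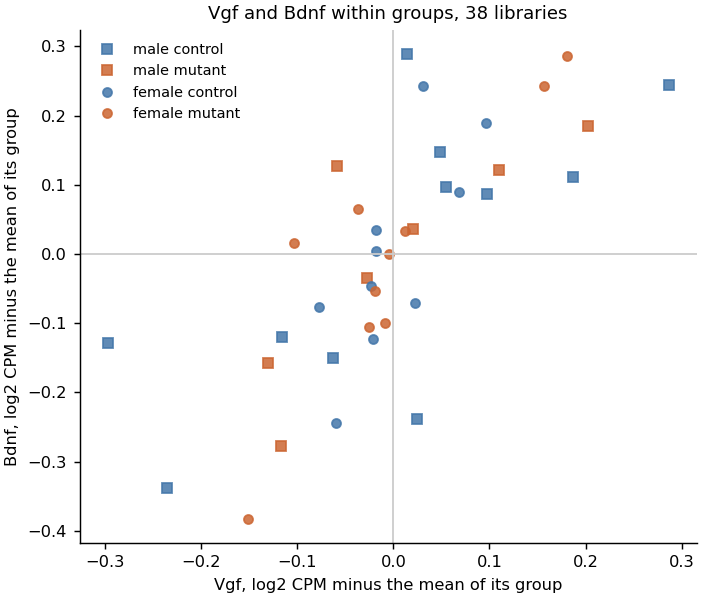
Deviation of Vgf (x axis) and of Bdnf (y axis) from the mean of the library's own group, in log2 CPM, for the 38 libraries. Squares are males and circles females, controls are blue and mutants orange, and the Pearson correlation is 0.743.

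Of the other 9 genes, Scg2 (0.453, rank 164 of 10025) and Pcsk1 (0.430, rank 217) were the most like Vgf. Chgb stood at 0.164, Pcsk1n at 0.062, Cpe at 0.046, Chga at 0.032 and Scg3 at −0.058, and Pcsk2 (−0.286) and Scg5 (−0.338) at the opposite end. The sign differed between the sexes for Scg5 (−0.496 in males, 0.253 in females, and −0.132 over all but the 2 farthest libraries), Chga (−0.115 and 0.316), Cpe (0.256 and −0.311), Pcsk1n (0.108 and −0.060) and Scg3 (0.029 and −0.279). Between the other genes the highest correlation was that of Scg3 and Cpe (0.620, with 0.611 in males and 0.658 in females), followed by Chgb and Pcsk1 (0.457), and the lowest was that of Pcsk1 and Cpe (−0.524). Scg2 and Pcsk1 had a correlation of 0.378. Of the 3 genes with TGACGTCA in the windows printed above, Scg2 (0.395 in males and 0.601 in females), Pcsk1 (0.487 and 0.327) and Chgb (0.066 and 0.342) thus spanned 0.164 to 0.453 in their correlation with Vgf.

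Bdnf itself averaged 42.6 ± 7.08 CPM in male control NS and 45.4 ± 3.64 CPM in female control NS, and between 34.1 and 38.6 CPM in the other 6 groups. Its averaged genotype difference was −0.15 ± 0.0621 (edgeR adjusted p 0.335) and its averaged stress difference −0.15 ± 0.0620 (adjusted p 0.444). Without the 3 libraries high in Cdhr1 these differences were −0.11 and −0.20. In stressed females Bdnf was 37.4 ± 4.89 CPM in controls and 37.3 ± 3.91 CPM in mutants, where Vgf was 429 and 356 CPM.

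Other parts of the pathway were read from further lists in the averaged genotype contrast, with a median of all genes at −9.43e-05 and 1.09% of all tested genes called. Of 11 other processing enzymes, 1 was called: Cpd, a carboxypeptidase of the trans-Golgi network that acts like Cpe on many precursors, was higher in mutants (0.09 ± 0.0239, adjusted p 0.0466; list median 0.01). Cpd lost the call in 21 of 38 runs that left out 1 library and without the 3 libraries high in Cdhr1 (adjusted p 0.321). Furin (−0.08), Pam, the amidating enzyme (−0.05), and Ctsl (−0.04) were not called, nor was any of 7 peptide-degrading enzymes (median 0.01). Of 19 genes of dense core vesicle formation and release, 1 was called, Syt10, a calcium sensor of vesicle release with a group mean of 1.36 to 2.58 CPM (0.51 ± 0.133, adjusted p 0.0387, list median −0.01). Syt10 was 0.34 with an adjusted p of 0.423 without the 3 libraries high in Cdhr1. The vesicle membrane proteins Ptprn (−0.03) and Ptprn2 (0.07), the release factors Cadps (−0.02) and Cadps2 (0.08), and Syt4 (0.08) were not called.

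Of 18 neuropeptide precursors, the cargo of these vesicles, 16 were tested and 4 were called, 2 higher and 2 lower in mutants (list median −0.05). In the same averaged contrast 1.09% of all tested genes were called. Sst, the peptide of the neurons in which Cre acts, was higher (0.19 ± 0.0336, adjusted p 0.00143), with group means of 138 to 148 CPM in mutants and 121 to 128 CPM in controls. Grp, gastrin-releasing peptide, was higher too (0.37 ± 0.0702, adjusted p 0.00282), at 9.73 to 13.7 CPM in control groups and 13.2 to 15.7 CPM in mutant groups. Penk, the enkephalin precursor, was lower (−0.24 ± 0.0453, adjusted p 0.00234), at 32.5 to 38.2 CPM in control groups and 26.0 to 31.2 CPM in mutant groups. Tac1, the substance P precursor, was lower (−0.27 ± 0.0646, adjusted p 0.0211), at 12.5 to 15.4 CPM in control groups and 10.03 to 12.3 CPM in mutant groups. Sst and Penk stayed called without the 3 libraries high in Cdhr1 (adjusted p 0.0411 and 0.0471), and Grp and Tac1 did not (0.0847 and 0.177).

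Penk was also the only precursor called within a single group contrast, in stressed males, where controls ranged from 29.3 to 36.4 CPM and mutants stood at 26.9, 27.2, 25.2 and 24.7 CPM (−0.39 ± 0.0641, adjusted p 0.0101). These groups did not overlap. The call was lost without male mutant CVS replicate 3 or replicate 4 (adjusted p up to 0.113). Npy, the neuropeptide Y precursor of inhibitory neurons, was not called (−0.13 ± 0.0366, adjusted p 0.0727), and Cck, Pdyn, Pnoc, Vip and Crh lay between −0.07 and 0.02. In the averaged stress contrast 0 of the 16 were called, against 0.017% of all tested genes, with Npy at −0.15 (adjusted p 0.125).

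Of 12 neurotrophin and CREB genes 11 were tested and 0 called for genotype (median 0.00), among them Crem (0.01) and Creb1 (−0.01). Of 15 activity-induced genes 0 were called in the averaged genotype contrast, and 12 were negative (median −0.12), among them Arc (−0.35 ± 0.216), Egr1 (−0.16 ± 0.0949), Inhba (−0.18 ± 0.0871) and Fos (−0.20 ± 0.173). These values moved when libraries were left out. Without male mutant NS replicate 2 alone, Arc was −0.67, Fos −0.41 and Egr1 −0.24, without replicate 3 of that group Fos was −0.12, and without the 3 libraries high in Cdhr1 Inhba was −0.06. In the averaged interaction all 15 were positive (median 0.39, 0 called), where all tested genes had a median of −0.00292 and 51.2% were negative. Without stress all 15 were negative in male mutants (median −0.66) and 9 of 15 in female mutants (median −0.04), while Vgf was −0.39 and −0.43. Without the 3 libraries 13 of 15 were negative in those males (median −0.87), and Vgf was −0.28. With all libraries Fos was −1.07 ± 0.470 in those males and 0.13 ± 0.249 in those females, and Npas4 was −0.82 ± 0.398 and 0.63 ± 0.234. Without the 3 libraries the male values were −1.72 ± 0.556 for Fos and −1.20 ± 0.529 for Npas4, resting on 1 mutant. The sex difference of the genotype effect was 1.05 ± 0.347 for Fos (adjusted p 0.432), 0.94 ± 0.304 for Npas4 (adjusted p 0.429) and −0.04 ± 0.0845 for Vgf (95% interval −0.21 to 0.14, adjusted p 0.955). Without the 3 libraries these were 1.46 ± 0.350 (adjusted p 0.130), 1.20 ± 0.326 (adjusted p 0.246) and −0.12 ± 0.0899 (adjusted p 0.924).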

How the data were processed

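The 10 genes, the gene lists and the alternatives were chosen with earlier results of these data known. Sequencing used a directional mRNA library kit and 150-bp paired reads, as the labels' protocols say. Tools named in the submitters' processing notes are fastp 0.23.2 for trimming, STAR 2.7.10b for alignment, with GRCm39 as the build, and featureCounts. Whole-number, unnormalized counts for each gene ID in 38 libraries were deposited. Neither the annotation release nor the strand setting of counting is given in the sources used here.

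Symbols (52029 of 57010 IDs) and exon lengths came from GENCODE on GRCm38, another build than that of the counts. With edgeR 4.0.16 in R 4.3.3, quasi-likelihood models (robust, TMM, filterByExpr with minimum count 10 and minimum total 15) were fitted to the 4 groups of each sex (17212 genes in males, biological coefficient of variation 0.0831; 16435 in females, 0.0716) and to all 8 groups (17671 genes, 0.0777). The model of 8 groups gave the averaged contrasts and the sex differences. P values were adjusted over all tested genes, with a threshold of 0.05. DESeq2 1.42.0, limma 3.58.1, other scalings and filters, and runs that left out libraries were alternatives. Log2 CPM used a prior count of 2. The edgeR fits were tested on simulated data in a single contrast of each sex, with changes larger than those of the 10 genes. The averaged contrasts, DESeq2 and limma voom were not tested in this way. Of 74 pairs of replicates 0 held identical counts. All 10 genes were named in every comparison; of each other list, genes past the threshold and otherwise up to 4 with the smallest p were named, and always Penk, Bdnf, Fos and Npas4. The level of the floxed gene is not reported here.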

Additional observations from a re-analysis of the deposited data

Results flagged for a closer look

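Within groups of 4 to 6 libraries, 4 values stood apart from the others of their group by Dixon's ratio at the 95% level, out of 70 combinations of gene and group (5.71%), where chance alone flags about 1 in 20. Pcsk1n, the gene of the Pcsk1 inhibitor, accounted for 3 of them. It was highest in male control CVS replicate 5, at 677.3 CPM against 506 to 548 CPM in the other 5 libraries. It was lowest in female control CVS replicate 5, at 616.8 CPM against 704 to 719 CPM in the other 4. In female mutant NS replicate 1 it was highest, at 623.1 CPM against 576 to 589.9 CPM. Pcsk2 was lowest in male control NS replicate 5, at 469.3 CPM against 515 to 528 CPM. None of the flagged values was one of Vgf, Scg2 or Chga. The group of 3 mice, male mutant NS, was not tested in this way, and there Chga stood at 118, 136 and 136 CPM.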

How the results depend on the processing

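No result changed sign while called in any alternative. In the genotype contrast averaged over sexes and stress states, the count of called genes (Chga and Scg2, 2 of 9) was 1 with DESeq2 size factors, with upper quartile factors, with no low-count filter, with limma voom, without the most abundant ID and mitochondrial transcripts, and without the 3 libraries high in Cdhr1, and leaving out 1 library gave 1 to 2. Chga was called in each of these 45 alternatives and Scg2 in 9 of them. In females without stress the count of 0 was 1 (Chga) with no low-count filter and with DESeq2, and in females under stress it was 1 (Chga) with DESeq2. For stress in female mutants, leaving out 1 library gave 0 to 1 (Pcsk1n, without female mutant CVS replicate 5). The averaged genotype difference of Vgf lay between −0.35 and −0.29 in all 45 alternatives. Counts over all genes are given with 2 ranges. The first covers the other settings, among them runs without the 3 libraries high in Cdhr1 and on the 2 groups alone, where these apply. The second covers runs without 1 library. The averaged genotype contrast called 193 (93 to 295, then 101 to 233). Females without stress gave 21 (17 to 118, then 6 to 47) and females under stress 4 (3 to 23, then 2 to 5). Males without stress gave 3 (0 to 11, then 0 to 6) and males under stress 9 (5 to 43, then 1 to 12). Stress in male controls gave 2 (0 to 23, then 0 to 3) and averaged stress 3 (3 to 38, then 0 to 16). The sex difference of the genotype effect gave 1 (0 to 5, then 0 to 2). Of the comparisons with 0 called genes, stress in female controls reached 51, stress in female mutants 36 and stress in male mutants 8, the sex difference of the stress effect 6, and the interactions at most 7. The cause was not tested. No paired analysis was possible because the labels give no numbers that pair mice across groups. With 3 to 6 mice a group, standard errors of 0.03 to 0.15 on the log2 scale limit what single contrasts can show.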
